A study of Homo sapiens with 9 samples.

Results

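The genes that build ribosomes were examined in a human breast cancer cell line treated with a herbal injection or with either of its single-herb components. The set was a list of 52 genes chosen by function: the proteins of the 2 classes of small nucleolar ribonucleoprotein (snoRNP), the abundant nucleolar phosphoproteins, the factors that process and assemble the small and large ribosomal subunits, and the subunits and initiation factors of RNA polymerase I. Of these 52 genes, 51 were found by symbol among the 24344 genes of the count table, and BOP1 was not analysed here. All 51 had enough reads to be tested, with 241 to 33149 reads per gene and library, so no member was lost to the filter on low counts.

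RNA polymerase I transcribes the ribosomal DNA repeats in the nucleolus into a long precursor RNA. Box C/D snoRNPs methylate the ribose groups of this precursor and box H/ACA snoRNPs convert uridines into pseudouridines, while large complexes of processing factors fold it, cut it and load it with ribosomal proteins. Most of these genes are expressed in every dividing cell, their output is tied to growth, and many of them are textbook targets of the transcription factor MYC, which is often highly active in breast cancer cells.

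The cells were MDA-MB-231, an established line from a human breast adenocarcinoma, grown in DMEM with fetal bovine serum and treated for 48 h. CKI (Compound Kushen Injection), which combines both herbs, was given at 2.0 mg/mL, and the single-herb injections, Kushen and Baituling, were given in the same proportion as in CKI; the labels also mark all 9 libraries with a dilution of 1 in 10. Each treatment had 3 libraries of total RNA, and no untreated library was used here, so every value below compares treatments. The labels do not say whether the 3 libraries of a treatment came from separate cultures, and p-values then measure only the spread between these libraries.

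Library totals were 20144628 to 23782071 reads, and reads were compared as CPM, each gene's reads divided by the effective size of its library, after TMM scaling, which sets a common reference across libraries from the bulk of the genes. All 7 markers of the line, among them VIM and CD44, were detected in every library, and their summed level was 2927 to 3102 CPM in CKI, 3791 to 3928 CPM in Kushen and 7481 to 7888 CPM in Baituling. The summed level of 6 luminal markers was 72.1 to 76.4 CPM in CKI, 80.5 to 83.4 CPM in Kushen and 141 to 145 CPM in Baituling libraries, with ESR1 and PGR under 1 CPM. Markers of other cell types were low: 6 fibroblast genes summed to 24.7 to 27.8 CPM in Baituling, 35.7 to 38.7 CPM in Kushen and 55.2 to 59.2 CPM in CKI, with DCN under 1 CPM everywhere. The 5 leukocyte genes summed to 5.07 to 11.8 CPM over the 9 libraries, 4 of them under 1 CPM, and the 3 endothelial genes summed to 10.1 to 15.8 CPM. The part these shifts have in the results below was not tested. In bulk RNA, fewer cells of a type and less RNA per cell cannot be told apart.

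Ribosome synthesis genes were lower in CKI and in Kushen than in Baituling, and CKI and Kushen lay close together. The 51 genes summed to 4229 ± 46.9 CPM in CKI, 4619 ± 78.3 CPM in Kushen and 6804 ± 86.1 CPM in Baituling (mean ± SD, n = 3 libraries each), and the 3 ranges did not overlap. The order of the sum was the same without any scaling beyond the library total: members took 0.605% to 0.609% of all reads in Baituling, 0.468% to 0.493% in Kushen and 0.459% to 0.460% in CKI. NPM1 alone made up the largest share of the sum, at 655 CPM in CKI and 896 CPM in Kushen. On the TMM scale, the heat map of the 51 genes shows that most members were highest in Baituling. The order of CKI and Kushen in the sum was not shared in this way. The median log2 fold change of the members in CKI against Kushen was -0.02 with TMM and 0.05 with library totals.

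**Figure D1:**
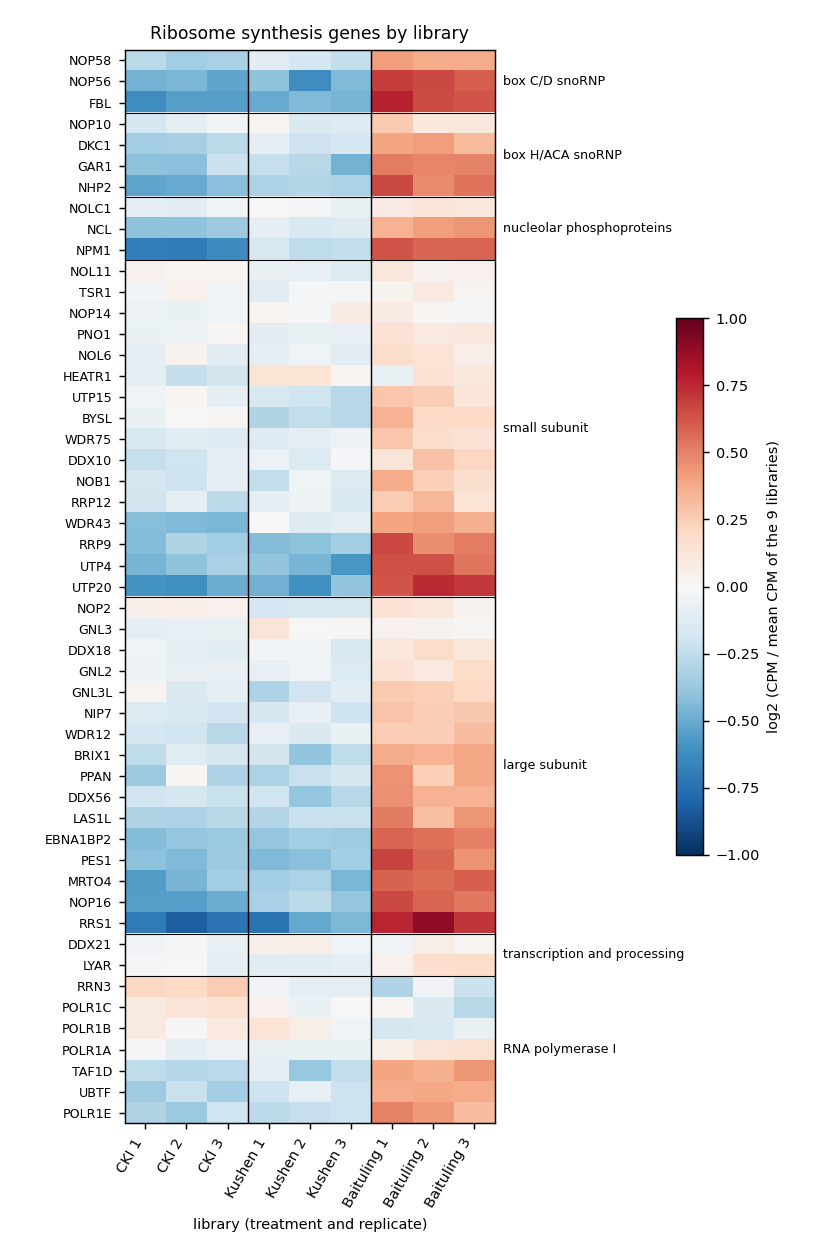
Each row is a ribosome synthesis gene, grouped by role, and each column a library; the colour gives the log2 ratio of its CPM to the mean CPM of the 9 libraries, cut at -1 and 1. On this TMM scale the 3 Baituling columns are red for most genes, and the clearest exceptions are RRN3, POLR1B and POLR1C, which are blue or near white there.

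Against Baituling, 43 of the 51 genes were lower in CKI by edgeR's quasi-likelihood test at an adjusted p under 0.05, where 37.0% of all 14195 genes tested were lower, and 3 members were higher against 39.1% of all genes. Kushen gave similar counts against the same Baituling libraries, with 43 members lower against 36.1% of all genes and 1 higher against 35.6%. Both comparisons share the Baituling libraries and so are not independent. The median log2 fold change of the members was -0.43 in each comparison, against 0.03 for all genes in CKI and 0.02 in Kushen. Members ranged from -1.55 to 0.40 in CKI and from -1.35 to 0.19 in Kushen. In 44 members the 3 CKI libraries all lay below the 3 Baituling libraries, as for 38.0% of all genes, and in 44 members the Kushen libraries did so, as for 36.7%.

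Few of these differences were large. A log2 fold change below -1 was reached by 9 members in CKI against Baituling, where 7.91% of all genes did so, and by 5 in Kushen against Baituling, where 6.73% did. These 5 were RRS1, UTP20, FBL, NOP56 and UTP4, and all of them were also among the 9 of CKI, with NPM1, NOP16, NHP2 and MRTO4. Altogether 41 members were lower than Baituling in both treatments, as were 31.2% of all genes, and 3 members (NOP14, TSR1 and DDX21) passed the test in none of the 3 comparisons.

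**Figure D2:**
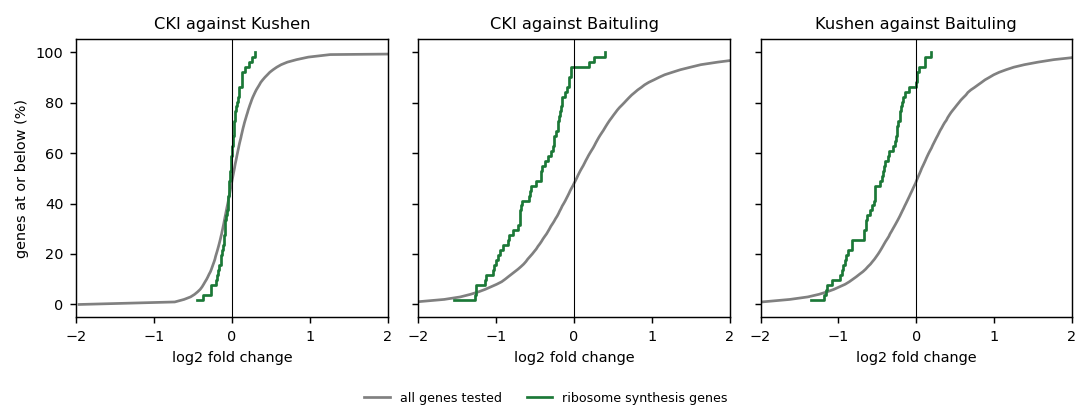
Cumulative distributions of the log2 fold change of the 51 ribosome synthesis genes (green steps) and of all 14195 genes tested (grey), with the share of genes at or below each value in percent. In both comparisons with Baituling the green line lies left of the grey one, with medians of -0.43 against 0.03 and 0.02 (with library totals -0.14 against 0.32 and -0.22 against 0.23), and in CKI against Kushen it rises steeply near 0, with a median of -0.02 against 0.01.

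The direction of the smaller differences depended on the scaling. When libraries were scaled by their totals alone, the median of all genes moved up by 0.29 in CKI against Baituling and by 0.21 in Kushen against Baituling on the log2 scale, and the members shifted by nearly the same amount, since scaling moves all genes together. On that scale 27 members were lower and 13 higher in CKI than in Baituling, where 22.6% of all genes were lower and 57.0% higher. In Kushen against Baituling 30 members were lower and 8 higher, where 24.6% of all genes were lower and 50.6% higher. The log2 fold change turned sign, called or not, in 17 members in CKI against Baituling, in 8 in Kushen against Baituling and in 14 when CKI was set against Kushen. With this scaling, the calls of POLR1A, PNO1, LYAR, GNL3 and NOLC1 turned from lower to higher in CKI relative to Baituling. The values below are on the TMM scale, and for genes with values in every library it is said where a call ended or turned with library totals.

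Part of the set carried the letters CACGTG at the promoter, the palindromic E-box that MYC and its partner MAX are known to bind. RefSeq promoter entries (build GRCh38.p14, 250 bases before to 50 bases after the start) were found for 45 of the 51 genes, and 19 of these (42.2%) held CACGTG, compared with 8.77% of 27305 genes with an entry and 12.1% of the 11245 tested genes with an entry. In 13 of the 45 (28.9%) the motif lay within the 50 bases after the start, against 1.39% of tested genes, and in 6 (13.3%) before it, against 10.9%. EBNA1BP2 is in both of these counts, and RRP9, whose motif runs across the start, is in neither. The motif reads the same on both strands. Windows are shown for UTP20, UTP4, FBL, MRTO4, RRP9 and PES1, which were among the members most reduced against Baituling, and for DDX21 and NOP14, which carried the motif and passed no test. The motif is in capitals and the strand is that of the gene.
UTP20 (chr12:101280065-101280114, plus strand): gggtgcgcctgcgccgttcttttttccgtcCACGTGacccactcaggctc
UTP4 (chr16:69132603-69132658, plus strand): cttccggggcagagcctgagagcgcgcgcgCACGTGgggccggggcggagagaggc
RRP9 (chr3:51941895-51941939, minus strand): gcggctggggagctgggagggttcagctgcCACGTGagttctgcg
FBL (chr19:39846358-39846383, minus strand): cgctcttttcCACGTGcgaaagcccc
MRTO4 (chr1:19251809-19251834, plus strand): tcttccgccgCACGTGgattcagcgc
PES1 (chr22:30591882-30591907, minus strand): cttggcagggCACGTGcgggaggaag
DDX21 (chr10:68956586-68956651, plus strand): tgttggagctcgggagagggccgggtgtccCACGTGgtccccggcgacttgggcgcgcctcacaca
NOP14 (chr4:2963377-2963401, minus strand): cgcggcccggCACGTGtcttagggt

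Members with and without the motif are given side by side. Of the 19 genes with CACGTG, 16 were lower in CKI than in Baituling, with a median log2 fold change of -0.27, and of the 26 genes with an entry but without the motif 21 were lower, with a median of -0.45. Among all genes tested 37.0% were lower. In Kushen against Baituling the same counts were 16 and 21, with medians of -0.46 and -0.43, where 36.1% of all genes were lower. A match describes the letters of the window and does not show that a factor binds there.

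The box C/D snoRNP proteins had the largest median difference of any role. FBL, fibrillarin, the enzyme that methylates ribose in these particles (chr19:40325098-40337019, minus strand, GRCh37), was at 109, 115 and 115 CPM in the CKI libraries, 118, 124 and 122 CPM in the Kushen libraries and 287, 264 and 259 CPM in the Baituling libraries. The Baituling libraries were thus over 2 times as high as any other library, and the log2 fold change was -1.26 ± 0.05 (SE) in CKI (edgeR adjusted p = 5.48e-15) and -1.15 ± 0.05 in Kushen (adjusted p = 3.1e-14). NOP56, a core scaffold protein of the same particle (chr20:2633239-2639039, plus strand), was at 112, 113 and 108 CPM in the CKI libraries, 117, 101 and 114 CPM in the Kushen libraries and 251, 245 and 236 CPM in the Baituling libraries. CKI and Kushen libraries overlapped for NOP56, and the log2 fold change against Baituling was -1.14 ± 0.05 in both (edgeR adjusted p = 1.43e-13 in CKI and adjusted p = 2.14e-13 in Kushen). NOP58, its partner in the scaffold, differed less, by -0.70 ± 0.05 in CKI and -0.56 ± 0.05 in Kushen. The exons of NOP56 overlap those of 3 small nucleolar RNA genes of the table on the same strand, so some reads may belong to either.

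The 4 box H/ACA proteins were lower in both treatments than in Baituling, with medians of -0.77 in CKI and -0.68 in Kushen. DKC1, dyskerin, the pseudouridine synthase of the particle (chrX:153991017-154005964, plus strand), was at 104, 105 and 110.1 CPM in the CKI libraries, 124, 115 and 118 CPM in the Kushen libraries and 174, 177 and 165 CPM in the Baituling libraries. No library of one treatment reached the range of another, so the 3 groups were ordered CKI, Kushen, Baituling. The log2 fold change of DKC1 was -0.69 ± 0.05 in CKI (edgeR adjusted p = 3.92e-11) and -0.53 ± 0.05 in Kushen (adjusted p = 2.7e-09) against Baituling. Its partners NHP2, GAR1 and NOP10 ranged from -1.04 (NHP2) to -0.25 (NOP10) in CKI and from -0.87 to -0.24 in Kushen. NOP10 was no longer called in either comparison with library totals.

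The abundant nucleolar phosphoproteins included the most highly expressed gene of the set. NPM1, nucleophosmin, a histone and ribosome chaperone of the nucleolus (chr5:170814120-170838814, plus strand), had the highest mean CPM per kb of exon sequence in each treatment, at 78.9 in CKI, 108 in Kushen and 190.5 in Baituling. The genes after it were NOP10 (60.2), FBL (52.8) and NCL (49.9) in CKI, NOP10 (60.8), NCL (59.8) and FBL (56.7) in Kushen and FBL (126), NCL (86.3) and NOP10 (71.8) in Baituling. With the canonical transcript as length, a choice made after seeing the data, NPM1 again came first in each treatment, and the same 3 genes followed it with FBL next in Baituling and NOP10 next in CKI and Kushen. NPM1 was at 646, 644 and 676 CPM in the CKI libraries, 933, 876 and 879.5 CPM in the Kushen libraries and 1617, 1568 and 1564 CPM in the Baituling libraries. The 3 groups were far apart relative to their spread, and NPM1 differed by -1.27 ± 0.04 in CKI (edgeR adjusted p = 7.46e-16) and by -0.82 ± 0.04 in Kushen (adjusted p = 6.95e-13) against Baituling. NPM1 has processed copies elsewhere in the genome, and how reads that fit several places were counted is not given in the sources used here, so its level is uncertain.

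NCL, nucleolin, an RNA-binding protein of the nucleolus (chr2:232318242-232348352, minus strand), was at 440.4, 440.4 and 454 CPM in the CKI libraries, 543, 525 and 532 CPM in the Kushen libraries and 741, 778 and 789 CPM in the Baituling libraries. It followed the order of NPM1 with smaller differences, -0.79 ± 0.04 in CKI and -0.53 ± 0.04 in Kushen against Baituling (edgeR adjusted p = 6.52e-13 and adjusted p = 3.74e-10). NOLC1, a chaperone of snoRNPs, differed by only -0.19 ± 0.04 and -0.14 ± 0.04, and with library totals it turned to higher in CKI and was not called in Kushen. Within this role the log2 fold change thus ranged from -1.27 to -0.19 in CKI.

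**Figure D3:**
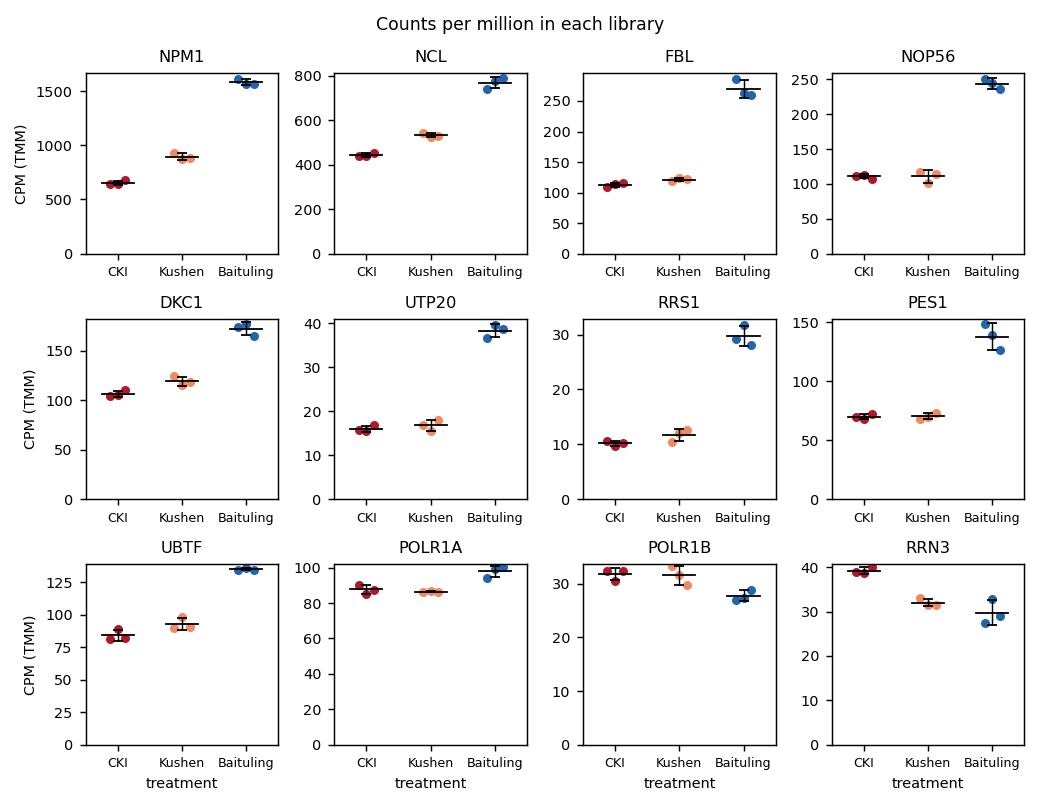
CPM (TMM-scaled, linear axes from 0) of 12 ribosome synthesis genes; each point is a library, the long bar the mean and the error bar the SD of 3 libraries. NPM1, NCL and DKC1 step up from CKI over Kushen to Baituling, FBL, NOP56, UTP20, RRS1 and PES1 are near level in CKI and Kushen and far higher in Baituling, POLR1A differs little, and POLR1B and RRN3 have their lowest means in Baituling.

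Among the 16 small-subunit processing factors, 13 were lower than Baituling in CKI and 13 in Kushen, where 37.0% and 36.1% of all genes were. The medians were -0.30 and -0.32. The spread within the role was wide. UTP20, a large protein of the small-subunit processome (chr12:101673883-101780396, plus strand), was at 15.7, 15.5 and 16.9 CPM in the CKI libraries, 16.98, 15.5 and 18.01 CPM in the Kushen libraries and 36.7, 39.7 and 38.6 CPM in the Baituling libraries. CKI and Kushen libraries overlapped and both groups lay far below Baituling, at -1.26 ± 0.07 (edgeR adjusted p = 2.73e-12) and -1.19 ± 0.07 (adjusted p = 9.3e-12). UTP4 at -1.001 and -1.08, and RRP9, a protein bound to the small nucleolar RNA that guides early cuts, at -0.91 and -0.94, came next, UTP4 just past the fold threshold in CKI. With library totals only 5 of the 16 stayed lower in CKI and 7 in Kushen, where 22.6% and 24.6% of all genes were lower. On that scale 4 and 3 were higher, where 57.0% and 50.6% of all genes were.

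WDR43, a subunit that ties rRNA transcription to processing (chr2:29117533-29171085, plus strand), was at 45.9, 45.4 and 44.99 CPM in the CKI libraries, 61.5, 56.5 and 57.97 CPM in the Kushen libraries and 81.2, 82.3 and 78.7 CPM in the Baituling libraries. All 3 groups were apart, and the log2 fold change against Baituling was -0.83 ± 0.05 in CKI and -0.46 ± 0.05 in Kushen (edgeR adjusted p = 7.48e-12 and adjusted p = 4.86e-08). HEATR1, another subunit of the same module (chr1:236712305-236767816, minus strand), was at 28.3, 25.7 and 26.6 CPM in the CKI libraries, 33.3, 33.2 and 30.6 CPM in the Kushen libraries and 28.7, 33.4 and 32.6 CPM in the Baituling libraries. Here CKI was the low group, and Kushen overlapped Baituling. HEATR1 differed by -0.23 ± 0.07 in CKI against Baituling (edgeR adjusted p = 0.00493), a call that ended with library totals at 0.06, and by 0.04 ± 0.07 in Kushen (adjusted p = 0.606, 95% interval -0.10 to 0.18), which was called higher at 0.25 with library totals.

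NOL11, which is also linked to rRNA transcription (chr17:65714047-65740647, plus strand), was at 73.1, 71.9 and 71.96 CPM in the CKI libraries, 67.3, 66.8 and 64.3 CPM in the Kushen libraries and 76.4, 72.8 and 72.9 CPM in the Baituling libraries. Kushen was the low group for NOL11, at -0.16 ± 0.05 against Baituling (edgeR adjusted p = 0.00342), and CKI did not pass the test at -0.03 ± 0.05 (adjusted p = 0.495, 95% interval -0.13 to 0.06). With library totals these values became 0.05 in Kushen, not called, and 0.25 in CKI, higher. BYSL, a factor bound to small-subunit precursors (chr6:41889237-41900784, plus strand), was at 81.5, 85.2 and 85.9 CPM in the CKI libraries, 69.3, 71.9 and 70.5 CPM in the Kushen libraries and 109, 97.2 and 97.9 CPM in the Baituling libraries. The Kushen libraries were lowest and the Baituling libraries highest, with log2 fold changes of -0.52 ± 0.05 in Kushen (edgeR adjusted p = 1.42e-08) and -0.27 ± 0.05 in CKI (adjusted p = 6.28e-05), the latter 0.02 and not called with library totals. TSR1 and NOP14 stayed near Baituling, at -0.06 ± 0.04 and -0.09 ± 0.05 in CKI and -0.10 ± 0.04 and -0.01 ± 0.05 in Kushen, and with library totals both were called higher in both treatments.

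Of the 16 large-subunit factors, 15 were lower than Baituling in CKI and 15 in Kushen, where 37.0% and 36.1% of all genes were. The medians were -0.56 and -0.62, and 11 and 12 stayed lower with library totals, where 22.6% and 24.6% of all genes were. RRS1, which helps to bring an early RNA and protein complex to the large-subunit precursor (chr8:67341249-67342968, plus strand), had the largest difference of all members and was at 10.5, 9.71 and 10.3 CPM in the CKI libraries, 10.4, 12.1 and 12.6 CPM in the Kushen libraries and 29.2, 31.8 and 28.2 CPM in the Baituling libraries. Its Baituling libraries were all above the other libraries, and its log2 fold change was -1.55 ± 0.08 in CKI (edgeR adjusted p = 1.68e-12) and -1.35 ± 0.08 in Kushen (adjusted p = 1.54e-11). PES1, a scaffold that acts in a complex with BOP1 and WDR12 (chr22:30972612-31003070, minus strand), was at 69.5, 68.2 and 72.1 CPM in the CKI libraries, 68.1, 69.3 and 73.1 CPM in the Kushen libraries and 148, 139 and 126 CPM in the Baituling libraries. CKI and Kushen overlapped for PES1, and both were -0.98 ± 0.05 relative to Baituling (edgeR adjusted p = 3.3e-12 in CKI and adjusted p = 5.14e-12 in Kushen). WDR12, its partner, differed less, by -0.48 ± 0.06 and -0.37 ± 0.06.

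NOP2, a methyltransferase of the large-subunit RNA (chr12:6666029-6677857, minus strand), was at 55.5, 56.1 and 55.3 CPM in the CKI libraries, 47.5, 47.8 and 47.9 CPM in the Kushen libraries and 59.2, 57.7 and 54.8 CPM in the Baituling libraries. Its Kushen libraries lay within 1 CPM of each other and below all others, at -0.26 ± 0.05 against Baituling (edgeR adjusted p = 7.64e-05), and CKI did not pass the test at -0.04 ± 0.05 (adjusted p = 0.443). With library totals Kushen was no longer called, and CKI was higher than Baituling at 0.25. GNL3, nucleostemin, a GTPase of the nucleolus, was -0.11 ± 0.04 in CKI, and in Kushen it was 0.02 ± 0.04 (edgeR adjusted p = 0.729). With library totals GNL3 was called higher in both, at 0.17 in CKI and 0.23 in Kushen. Its call in CKI also ended with upper quartile scaling, at -0.04. NOP16, MRTO4 and EBNA1BP2 were among the most reduced, with log2 fold changes against Baituling of -1.13, -1.03 and -0.95 in CKI and -0.92, -0.95 and -0.91 in Kushen.

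**Figure D4:**
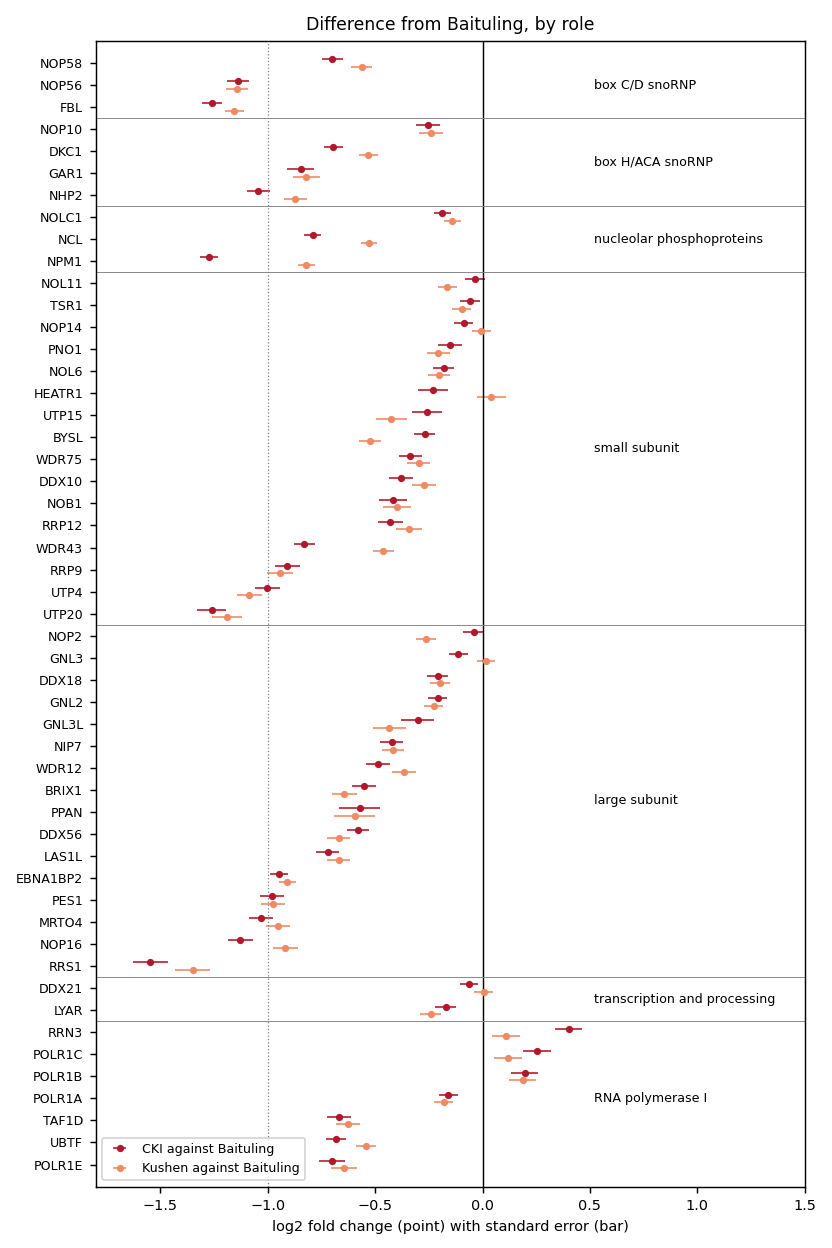
Log2 fold change of each of the 51 genes in CKI (red) and Kushen (orange) against Baituling, grouped by role, with points for the estimate, bars for the standard error and a dotted line at -1. Most points lie left of 0, down to -1.55 for RRS1 in CKI (with library totals 27 of the 51 stay lower in CKI and 30 in Kushen), and RRN3, POLR1C and POLR1B lie right of 0 in both.

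On the TMM scale, RNA polymerase I was the role with members called in both directions against Baituling. Of its 7 genes, 4 were lower (57.1%) and 3 higher (42.9%) in CKI than in Baituling, where 37.0% and 39.1% of all genes were. In Kushen against Baituling 4 were lower (57.1%) and 1 higher (14.3%), where 36.1% and 35.6% of all genes were. With library totals 3 were lower and 4 higher in CKI, where 22.6% and 57.0% of all genes were. In Kushen these counts were 3 and 3, where 24.6% and 50.6% of all genes were. POLR1A, the largest catalytic subunit (chr2:86247339-86333278, minus strand), was at 90.2, 85.4 and 87.6 CPM in the CKI libraries, 86.4, 86.7 and 86.3 CPM in the Kushen libraries and 94.4, 99.1 and 101 CPM in the Baituling libraries. The Baituling libraries were the highest by a small margin, with log2 fold changes of -0.16 ± 0.04 in CKI (edgeR adjusted p = 0.00288) and -0.18 ± 0.04 in Kushen (adjusted p = 0.00117). With library totals POLR1A turned to higher in CKI at 0.13 and was not called in Kushen at 0.03.

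POLR1B, the other large subunit of the catalytic core (chr2:113299492-113337395, plus strand), was at 32.4, 30.6 and 32.5 CPM in the CKI libraries, 33.4, 31.6 and 29.8 CPM in the Kushen libraries and 27.1, 27.4 and 28.9 CPM in the Baituling libraries. It was higher than Baituling in CKI by 0.20 ± 0.06 (edgeR adjusted p = 0.0075) and in Kushen by 0.19 ± 0.06 (adjusted p = 0.0118), and without Kushen replicate 1 the latter was 0.14 and was not called. POLR1C, a subunit shared with RNA polymerase III (chr6:43477440-43530156, plus strand), was at 46.3, 47.6 and 48.3 CPM in the CKI libraries, 44.7, 41.4 and 43.5 CPM in the Kushen libraries and 44.1, 39.2 and 35.8 CPM in the Baituling libraries. The Baituling libraries of POLR1C were spread widely, and CKI was higher by 0.25 ± 0.06 (edgeR adjusted p = 0.00154), while Kushen was 0.12 ± 0.07 (adjusted p = 0.107) and was called higher at 0.21 without Baituling replicate 1, at 0.33 with library totals and at 0.19 with upper quartile scaling. Exons of POLR1C overlap those of 3 genes of the table on the opposite strand, and the libraries were unstranded.

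RRN3, the initiation factor that recruits RNA polymerase I to its promoter (chr16:15153890-15188168, minus strand), was at 38.99, 38.7 and 40.1 CPM in the CKI libraries, 33.03, 31.5 and 31.6 CPM in the Kushen libraries and 27.4, 32.9 and 29.1 CPM in the Baituling libraries. The CKI libraries were the highest and did not overlap the other groups, while Kushen overlapped Baituling. RRN3 was higher in CKI than in Baituling by 0.40 ± 0.06 (edgeR adjusted p = 1.24e-05), and Kushen was 0.11 ± 0.07 (adjusted p = 0.142), and was called higher at 0.18 without Baituling replicate 2, at 0.32 with library totals and at 0.18 with upper quartile scaling. RRN3 has near-identical pseudogene copies, so its counts are uncertain in the same way as those of NPM1.

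UBTF, the factor that binds along the ribosomal DNA repeats and keeps them open (chr17:42282401-42298994, minus strand), was at 81.4, 89.05 and 82.3 CPM in the CKI libraries, 90.04, 98.2 and 90.3 CPM in the Kushen libraries and 134, 136 and 135 CPM in the Baituling libraries. It went the opposite way to RRN3, at -0.68 ± 0.05 in CKI (edgeR adjusted p = 1.2e-10) and -0.54 ± 0.05 in Kushen (adjusted p = 4.74e-09) against Baituling. The promoter factor subunit TAF1D at -0.67 and -0.63, and the polymerase subunit POLR1E at -0.70 and -0.64, were close to UBTF. These 3 genes stayed lower with library totals in both comparisons. TAF1D hosts 7 small nucleolar RNA genes of the table within its exons or overlapping them, and their reads may be included in its count.

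DDX21 and LYAR act in rRNA transcription and processing alike. DDX21, an RNA helicase, was -0.06 ± 0.04 in CKI (95% interval -0.15 to 0.03) and 0.01 ± 0.04 in Kushen (-0.08 to 0.10) against Baituling and passed the test in neither, although both values were called higher with library totals. LYAR, a nucleolar zinc finger protein, was -0.17 ± 0.05 in CKI and -0.24 ± 0.05 in Kushen (edgeR adjusted p = 0.0035 and adjusted p = 0.000209), and with library totals CKI turned to higher and Kushen was not called.

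CKI and Kushen were compared next, since CKI holds both herbs. Of the 51 genes, 10 were lower in CKI than in Kushen, where 20.2% of all genes were lower, and 4 were higher, where 19.6% were, so that 14 were called in either direction against 39.8% of all genes. The log2 fold changes ranged from -0.45 to 0.29 with a median of -0.02, and 0 members passed the fold threshold in edgeR or in DESeq2, although those 14 passed the test and 19 had an unadjusted p under 0.05. Among all genes 1.70% were called above a log2 fold change of 1 and 0.197% below -1. In 20 members (39.2%) the groups did not overlap, against 49.5% of all genes.

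The 10 genes that were lower in CKI came from 6 of the 7 roles. NPM1 had the largest difference, -0.45 ± 0.04 (edgeR adjusted p = 6.64e-08), followed by WDR43 at -0.37 ± 0.05 (adjusted p = 8.88e-06), HEATR1 at -0.27 ± 0.07 (adjusted p = 0.0031) and NCL at -0.26 ± 0.04 (adjusted p = 3.42e-05). The other 6 were NOP16, NHP2, DKC1, UBTF, NOP58 and GNL3, between -0.21 and -0.13, and none of these 6 was called with library totals. UBTF also lost its call in 3 of the 9 fits that left out a library, those without CKI replicate 1, CKI replicate 3 or Kushen replicate 2, at -0.12, -0.12 and -0.10.

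Higher in CKI than in Kushen were RRN3 by 0.29 ± 0.06 (edgeR adjusted p = 0.000956), BYSL by 0.26 ± 0.05 (adjusted p = 0.00044), NOP2 by 0.22 ± 0.05 (adjusted p = 0.00108) and NOL11 by 0.13 ± 0.04 (adjusted p = 0.0279). The call of NOL11 was lost with DESeq2 or its size factors, with no filter, and without any CKI library or Kushen replicate 2 or 3, at 0.10 to 0.13. With library totals 12 members were higher, where 29.7% of all genes were, and 4 were lower, where 12.9% were, and the 4 were NPM1, WDR43, HEATR1 and NCL.

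For the other 37 genes the data set a bound on the difference between CKI and Kushen on the TMM scale. In 33 of the 37 the 95% interval lay within 1.2-fold in either direction, and the widest bound was 0.38 on the log2 scale. These intervals do not include the choice of scaling, and with library totals 8 of the 37 were called higher in CKI, where 29.7% of all genes were. PES1 differed by -0.00 ± 0.06 (95% interval -0.12 to 0.11), NOP56 by 0.00 ± 0.05 (-0.11 to 0.11), POLR1A by 0.02 ± 0.04 (-0.07 to 0.11) and UTP20 by -0.07 ± 0.07 (-0.23 to 0.08). By mean CPM, 28 members had the order CKI, Kushen, Baituling from low to high and 17 the order Kushen, CKI, Baituling, but most of the pairs of CKI and Kushen in these orders did not differ beyond their spread. With library totals these counts were 14 and 17, and in the other 20 members Baituling was not the highest group.

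The remaining genes of the pathway were taken from 4 further lists with 118 genes tested: other RNA polymerase I genes, other small-subunit and large-subunit factors and the RNA exosome, which trims rRNA ends. Against Baituling, 69 of the 118 (58.5%) were lower and 17 higher in CKI, with a median of -0.18, where 37.0% of all genes were lower and 39.1% higher. In Kushen 80 (67.8%) were lower and 13 higher, with a median of -0.28, where 36.1% and 35.6% of all genes were. With library totals 40 were lower and 54 higher in CKI, where 22.6% of all genes were lower and 57.0% higher. In Kushen 48 were lower and 33 higher, where 24.6% and 50.6% of all genes were. The medians on that scale were 0.11 and -0.07, against 0.32 and 0.23 for all genes. The sign of the median in CKI thus depended on the scaling, and on both scales the median lay below that of all genes. CKI against Kushen gave 25 higher (21.2%) and 22 lower (18.6%), with a median of 0.00, shares close to the 19.6% and 20.2% of all genes.

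Beside shares of 37.0% lower and 39.1% higher over all genes, the lower and higher genes in CKI against Baituling were 6 and 1 of 14 for RNA polymerase I, 28 and 4 of 45 for the small subunit, 24 and 12 of 45 for the large subunit and 11 and 0 of 14 for the exosome. In CKI the share of lower genes in the RNA polymerase I list (42.9%) was thus close to that of all genes, and its share of higher genes (7.14%) was below it. In Kushen against Baituling, where 36.1% of all genes were lower and 35.6% higher, the counts were 8 and 0, 32 and 3, 29 and 9, and 11 and 1. The lowest values in CKI and Kushen against Baituling belonged to POLR1G, a polymerase subunit (-1.19 and -1.08), NOC4L, a small-subunit factor (-1.13 and -1.23), NLE1, a large-subunit factor (-1.37 and -1.32), and EXOSC5, an exosome subunit (-1.93 and -1.54). Each of these 4 stayed lower with library totals. Of the rises in CKI, the largest was that of DDX47, a helicase of the small-subunit list (1.18 ± 0.35, edgeR adjusted p = 0.00506), which rested on 7 to 35 reads a library and was 0.81 ± 0.37 in Kushen (adjusted p = 0.0573). EFL1, the GTPase that helps to mature the large subunit in the cytoplasm, was higher in both (0.72 ± 0.06 and 0.67 ± 0.06, edgeR adjusted p = 9.62e-10 and adjusted p = 4.06e-09). The largest called rise of a list was otherwise 0.12 for POLR2H in CKI and 0.29 for BMS1 and 0.17 for C1D in Kushen. In CKI against Kushen the called genes ranged from -0.19 (TAF1B) to 0.31 (TAF1C) in the RNA polymerase I list, from -0.33 (TBL3) to 0.22 (NGDN) in the small-subunit list, from -0.44 (URB1) to 0.41 (ZNF622) in the large-subunit list and from -0.38 (EXOSC5) to 0.21 (MPHOSPH6) in the exosome list.

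**Figure D5:**
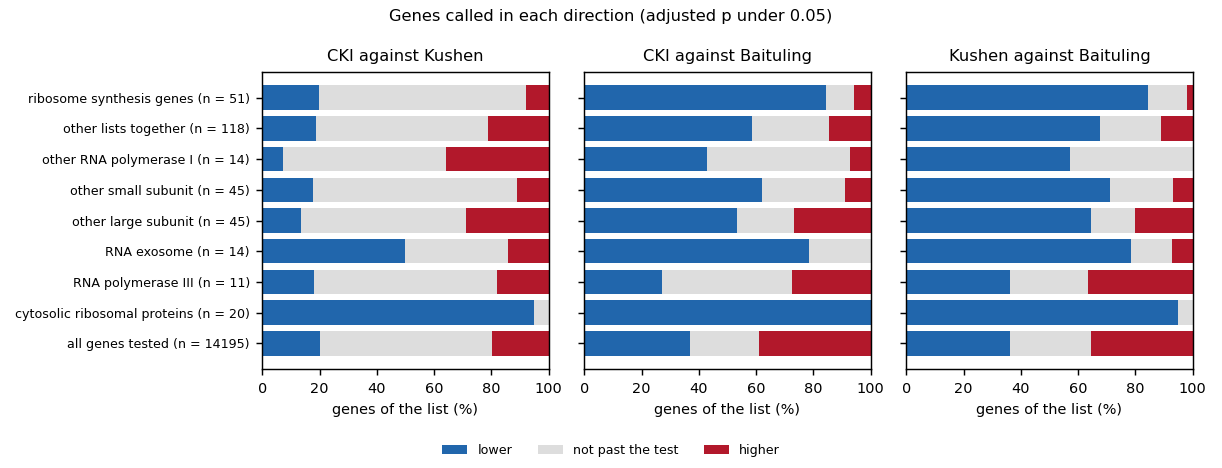
Share of each gene list, in percent of the genes tested, that was lower (blue), higher (red) or not past the test (grey) by edgeR at an adjusted p under 0.05 on the TMM scale. In both comparisons with Baituling the 51 ribosome synthesis genes have 84.3% lower, between the other lists together (58.5% and 67.8%) and the cytosolic ribosomal proteins (all 20 and 19 of 20). RNA polymerase III, like all genes, is evenly split. With library totals the members have 27 and 30 lower and the other lists 40 and 48 of 118, where 22.6% and 24.6% of all genes are. On that scale RNA polymerase III has 8 and 7 higher of 11, where 57.0% and 50.6% of all genes are.

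RNA polymerase III, which makes transfer RNAs and the small rRNA of the large subunit, was evenly split on the TMM scale, as all genes were. Of its 11 own subunits, 3 were higher and 3 lower in CKI than in Baituling and 4 and 4 in Kushen. With library totals 8 were higher and 1 lower in CKI, where 57.0% of all genes were higher, and 7 and 3 in Kushen, where 50.6% were. POLR3A, its largest subunit, was higher (0.69 ± 0.06 in CKI and 0.60 ± 0.06 in Kushen), and POLR3G, a subunit linked to growing and undifferentiated cells, was lower (-0.87 ± 0.10 and -0.63 ± 0.09). Both kept their direction with library totals.

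The 20 cytosolic ribosomal protein genes examined, whose products the ribosome synthesis factors assemble, were lower in CKI than in Baituling in 20 of 20 cases with a median of -0.99. Among all genes 37.0% were lower. A log2 fold change below -1 was reached by 10 of the 20, where 7.91% of all genes did so. In Kushen against Baituling 19 of 20 were lower with a median of -0.71, where 36.1% of all genes were lower. In CKI against Kushen 19 of 20 were lower with a median of -0.26, where 20.2% of all genes were. With library totals 19, 19 and 18 stayed lower, where 22.6%, 24.6% and 12.9% of all genes were lower. RPL3 was at 638, 653 and 666 CPM in the CKI libraries, 918, 906 and 938 CPM in the Kushen libraries and 2118, 1944 and 1962 CPM in the Baituling libraries. Its 3 groups were clearly apart, at -1.62 ± 0.04 in CKI (edgeR adjusted p = 4.01e-17) and -1.13 ± 0.04 in Kushen (adjusted p = 9.21e-15) against Baituling. Ribosomal protein genes have many processed copies, and their counts are uncertain to that extent.

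Regulators of ribosome synthesis and of the nucleolar stress response were called in both directions, as were all genes, with 5 higher and 7 lower of 17 in CKI against Baituling (39.1% and 37.0% of all genes), 6 higher and 9 lower in Kushen against Baituling (35.6% and 36.1%) and 6 higher and 4 lower in CKI against Kushen (19.6% and 20.2%). With library totals these counts were 10 and 4 (57.0% and 22.6% of all genes), 8 and 7 (50.6% and 24.6%), and 7 and 4 (29.7% and 12.9%). MYC was at 237, 249 and 259.9 CPM in the CKI libraries, 195, 214 and 225 CPM in the Kushen libraries and 315, 302 and 307 CPM in the Baituling libraries. Kushen was the lowest group, and MYC was -0.31 ± 0.05 in CKI (edgeR adjusted p = 1.36e-05) and -0.54 ± 0.05 in Kushen (adjusted p = 9.03e-09) against Baituling and 0.23 ± 0.05 in CKI against Kushen (adjusted p = 0.00107); with library totals the value in CKI against Baituling was -0.02. Among the MYC antagonists MXD1 was higher, at 1.70 ± 0.07 in CKI and 0.99 ± 0.08 in Kushen against Baituling, and MXD3 was lower, at -1.52 ± 0.08 and -1.06 ± 0.08.

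CDKN1A, a cell cycle inhibitor, exceeded its Kushen level in CKI by 0.72 ± 0.05 (edgeR adjusted p = 6.97e-10) and did not pass the test in Kushen against Baituling at 0.00 ± 0.05. POLR1D, a subunit shared by RNA polymerases I and III, was at 57.4, 55.2 and 58.8 CPM in the CKI libraries, 59.9, 55.3 and 55.5 CPM in the Kushen libraries and 65.9, 59.7 and 66.5 CPM in the Baituling libraries. Its differences from Baituling were small, at -0.16 ± 0.05 in CKI and -0.17 ± 0.05 in Kushen (edgeR adjusted p = 0.0103 and adjusted p = 0.00925), and both turned positive with library totals, at 0.12 and 0.04.

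The RNAs tested that stay in the nucleus moved the other way. NEAT1, the scaffold RNA of paraspeckles, was at 1114, 1009.6 and 708 CPM in the CKI libraries, 1311, 682 and 1039 CPM in the Kushen libraries and 56.5, 73.2 and 74.7 CPM in the Baituling libraries. MALAT1, an RNA of nuclear speckles, was at 705, 566 and 333 CPM in the CKI libraries, 688, 344 and 505 CPM in the Kushen libraries and 74.6, 67.9 and 83.1 CPM in the Baituling libraries. Both varied by more than 1.5 times within CKI and within Kushen, and against Baituling their log2 fold changes were 3.79 ± 0.19 and 2.83 ± 0.22 in CKI and 3.89 ± 0.19 and 2.77 ± 0.22 in Kushen. With KCNQ1OT1, all 3 nuclear-retained RNAs tested were higher than Baituling in both treatments by edgeR, on TMM and on library totals. Of all genes, 39.1% were higher in CKI and 35.6% in Kushen on TMM, and 57.0% and 50.6% on library totals. TUG1, OIP5-AS1 and MIAT were also on this list but were not tested. The part that the state of the RNA or of the cells has in this and in the lower ribosome synthesis genes was not tested.

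Transcript length moved with the differences from Baituling. For CKI against Baituling the median of all genes was -0.17 among canonical transcripts under 1500 bases, -0.10 from there to under 2500 bases, 0.02 from there to under 4000 bases and 0.16 for 4000 bases and over. The members lay below the median of all genes in each of these bins, at -0.99 (8 genes), -0.67 (21 genes), -0.20 (10 genes) and -0.24 (12 genes). In Kushen against Baituling all genes were at -0.16, -0.12, -0.02 and 0.15 and the members at -0.85, -0.63, -0.23 and -0.27. In CKI against Kushen the members lay between -0.07 and 0.00 in the 4 bins. The bins were set after seeing the data, those of the members hold 21 genes or fewer, and the part of length in the members' differences was not tested.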

How the data were processed

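Total RNA from MDA-MB-231 cells was sequenced as unstranded paired-end libraries, 3 for each of 3 treatments, and the groups were taken from the GEO titles. Per the labels and the study's methods, the authors trimmed reads with Trim Galore 0.3.7, aligned them with STAR 2.5.3a to hg19 and deposited a table of raw counts per gene; the counting program and its annotation are not given in the sources used here. Of 24566 rows, 222 repeat a gene and its counts under a different Entrez identifier, and these were dropped. Symbols and positions came from GENCODE 44 lifted to GRCh37, the assembly of hg19. The authors' own comparisons were not used.

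Genes passing filterByExpr in edgeR 4.0.16 (R 4.3.3; minimum count 10, minimum total 15) numbered 14195. Counts were scaled by TMM and fitted with glmQLFit for all 9 libraries with treatment as the only term. P-values were two-sided and Benjamini-Hochberg adjusted over all genes tested, and a gene was called at an adjusted p under 0.05. A further count added a log2 fold change above 1 or below -1. With 3 libraries per group the smallest p of an exact permutation test is 0.1, and only the fit across genes was used. The fit was tested on simulated counts. Replicates of a treatment differed by more than sampling noise (chi-square per gene 1.70 to 6.85), so no library was counted as a copy of another. The common biological coefficient of variation was 4.53%.

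The members and all gene lists were chosen with earlier results of these data known. Named with values in every library were, in each comparison, up to 4 called members with the largest rise and 4 with the largest fall, together with FBL, NOP56, DKC1, NCL, NPM1, PES1, POLR1A, POLR1B, RRN3 and UBTF; MYC, POLR1D, NEAT1 and MALAT1 were added from the other lists, whose extreme genes are given by fold change for the pathway lists and in part for the others, and a further gene of these lists is not reported here. Other members named beside them were picked after their values were seen. Exons of 14 members overlap a gene of the table on the opposite strand (NHP2, UTP15, HEATR1, NOP14, TSR1, NOP16, WDR12, PES1, LAS1L, GNL3, GNL2, EBNA1BP2, POLR1C and TAF1D) and those of 6 overlap a gene on the same strand (NOP56, DKC1, NCL, GNL3, TAF1D and PPAN), so their counts may include reads of the partner. Alternatives were other scalings and filters, DESeq2 1.42.0, fits of only the 2 groups compared, a replicate block, a fold threshold inside the test and leaving out each library.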

Additional observations from a re-analysis of the deposited data

How the results depend on the processing

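The lower level of the members in CKI and in Kushen than in Baituling kept its direction under the alternatives run, and its size and the calls of small differences depended on the scaling. With library totals in place of TMM, members higher and lower were 12 and 4 in CKI against Kushen, 13 and 27 in CKI against Baituling and 8 and 30 in Kushen against Baituling (4 and 10, 3 and 43, and 1 and 43 with TMM), past the fold threshold was 1 member in each comparison with Baituling, and the medians were 0.0501, -0.14 and -0.22. Of all genes, 29.7% were higher and 12.9% lower in CKI against Kushen with library totals. The shares were 57.0% and 22.6% in CKI against Baituling and 50.6% and 24.6% in Kushen against Baituling. That scale shifts all genes together, and the log2 fold change turned sign in 17 members in CKI against Baituling (among those named with values in every library BYSL 0.0196, HEATR1 0.0563, NOL11 0.25, NOP2 0.25, POLR1A 0.13) and in 8 in Kushen against Baituling (NOL11 0.0491 and POLR1A 0.03115 among those named). With upper quartile scaling the medians against Baituling were -0.36 in CKI and -0.36 in Kushen. On that scale 3 members were higher in Kushen than in Baituling, as were 5706 of the 14195 genes tested. With at least 10 counts in every library the medians were -0.39 and -0.40 and 2 members were higher in Kushen. Tested against a fold of 1.2, CKI against Kushen had 0 members higher and 1 lower, CKI against Baituling had 1 higher and Kushen against Baituling had 0 higher; that test asks for a larger difference by construction. The share of promoters with CACGTG was 13.3% for the bases before the start only, where fewer bases were searched. Leaving out each library gave medians of -0.47 to -0.43 in CKI against Baituling and -0.47 to -0.41 in Kushen against Baituling, 3 to 5 higher and 7 to 11 lower members in CKI against Kushen, 41 to 43 lower members in CKI against Baituling, 43 in Kushen against Baituling, and 0 to 2 higher members in Kushen against Baituling: 0 without Kushen replicate 1, and 2 without Baituling replicate 1 or 2. Apart from the settings named, the cause of these shifts was not tested. Shares of all genes under the filter, the fold of 1.2 and the fits without a library are not given here.

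No pairing of the libraries by replicate number was detected, a check that cannot show whether same-numbered libraries were handled together. Deviations of same-numbered libraries from their group means correlated between -0.0746 and 0.123 over 9 pairs, and only 1 library correlated best with its own number. With the replicate number as a block the members higher and lower stayed at 4 and 10, 3 and 43, and 1 and 43, with medians of -0.02, -0.43 and -0.43, and 8 in place of 9 members passed the fold threshold in CKI against Baituling. With 241 reads or more per member and library, depth limits mainly the smallest differences.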
